A study of Mus musculus with 30 samples.

Results

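The glomerulus is the filter of the kidney, a tuft of capillaries held together by mesangial cells and wrapped by podocytes, whose interlocking foot processes and slit diaphragm keep protein in the blood. In diabetes this filter thickens and leaks, and podocytes are lost, while the tubules downstream take up more glucose. The comparison described here set 4 BTBR ob/ob mice against 4 BTBR WT mice at 24 weeks of age, all of them female and with no treatment named in the labels. The ob allele destroys leptin, the satiety hormone of fat cells, in every cell of the body, so these mice overeat, become obese and, on the BTBR background, severely diabetic. The absence of leptin, obesity and diabetes cannot be told apart in this design. Glomeruli were separated from whole kidneys with a stack of steel sieves and viewed by microscope for purity, total RNA was extracted, and each animal gave 1 Affymetrix array. These 8 arrays are part of 30, which also cover 4, 8 and 16 weeks. All genes above a low signal limit entered the comparison, 24099 of 30142 with a probe set of their own.

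Values are log2 signals as the authors deposited them. They are compared for the same gene between arrays and never between genes, because probes differ in brightness. Some deposited values exceed 16, more than a 16-bit scanner can record, and the step that stretched the scale is not given in the sources used here. Differences are therefore given as ob/ob minus wild type in deposited log2 units, with the standard error (SE) of the fit after ± and n = 4 arrays per genotype, and no linear fold is given. "Rose" and "fell" are used only for genes whose limma p, adjusted by Benjamini-Hochberg over all 24099 genes tested, was below 0.05.

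The allele itself could not be checked on these arrays. The ob allele is known as a point mutation that stops translation, which array probes do not read. Lep signal was 5.56, 5.97, 5.40 and 5.45 in ob/ob replicates 1 to 4 and 5.12, 5.30, 5.03 and 5.16 in wild type, a difference of 0.44 ± 0.14 (adjusted p = 0.0749), on arrays whose intron control probe sets had medians from 5.73 to 6.79. Those values lie near background, and Lep did not pass the test. The leptin receptor gene Lepr differed by -0.80 ± 0.22 (adjusted p = 0.0533).

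The 4 ob/ob arrays were not alike in quality. Control probe sets on the array mark exons of constantly expressed genes and introns, and their separation is the probability that a random exon control is brighter than a random intron control. It was 0.778, 0.783, 0.861 and 0.762 on ob/ob replicates 1 to 4 and 0.862, 0.886, 0.875 and 0.832 on wild-type replicates 1 to 4. Replicate 3 lay within the wild-type range, and the other ob/ob arrays lay below all wild-type arrays. The means differed by -0.068 (two-sided exact permutation test, p = 0.0571, where 4 against 4 can reach 0.0286). Intron control medians were 6.79, 6.68, 5.90 and 6.73 in ob/ob, against 6.06, 5.73, 5.97 and 6.31 in wild type. The value of replicate 3 is therefore shown next to the test over all 8 arrays for the genes the results turn on. Arrays are numbered by replicate where single ones were left out.

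Of the genes tested, 2105 passed (8.73%), 359 higher in ob/ob (1.49%) and 1746 lower (7.25%), and 7300 had an unadjusted p under 0.05. Falls made up 82.9% of these calls, but 51.5% after cyclic loess scaling of the arrays, which called 537 genes higher (2.23%) and 570 lower (2.37%). In 346 of the 359 higher genes and 1668 of the 1746 lower genes, replicate 3 lay beyond all 4 wild-type arrays on the same side as the group. Replicate 3 is 1 of the 4 ob/ob arrays that set these calls, so this agreement is largely built into the selection. Over all 24099 genes tested, called or not, the groups did not overlap for 1203 higher and 2908 lower genes. The median difference of the lower genes was -0.54 in replicate 3 and -0.90 in the mean of replicates 1, 2 and 4. For the higher genes it was 0.55 and 0.73. Replicate 3 alone against the 4 wild-type arrays, with the spread taken from 27 arrays that exclude replicates 1, 2 and 4, called 148 genes higher (0.614%) and 91 lower (0.378%), of which 55 and 62 were also called, the same way, over all 8 arrays. With the separation of each array as a covariate over all 30 arrays, 446 genes were higher (1.85%) and 526 lower (2.18%). The count depended on single arrays: it was 6858 without ob/ob replicate 3, 415 without ob/ob replicate 2, 497 without ob/ob replicate 1 and 923 without ob/ob replicate 4. It was 1184, 578, 552 and 1629 without wild-type replicates 1 to 4 in turn.

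**Figure D1:**
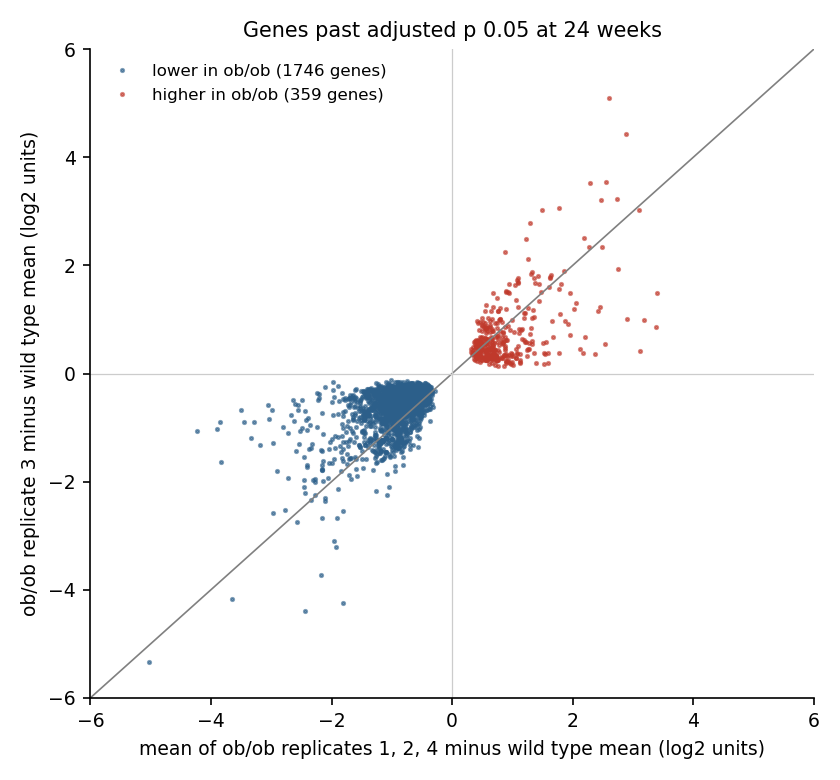
Each point is 1 of the 2105 genes past the threshold at 24 weeks, with the mean of ob/ob replicates 1, 2 and 4 minus the wild-type mean on the horizontal axis and ob/ob replicate 3 minus the wild-type mean on the vertical axis, both in deposited log2 units. The line marks equal differences, and most of the 1746 lower genes lie above it, where replicate 3 changed less (median -0.54 against -0.90).

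Markers of the glomerular cells differed widely between the ob/ob arrays. The mean of 27 podocyte genes was 9.72, 8.47, 10.29 and 8.51 on ob/ob replicates 1 to 4 and 10.52, 10.64, 10.63 and 10.70 on wild type. Replicates 2 and 4 were lowest, replicate 1 was intermediate, and replicate 3 was just below the wild-type range. Of these 27 genes, 9 fell (33.3%, against 7.25% of all genes tested) and none rose. The median difference was -1.48, against -0.03 over all genes tested. In replicate 3 that median was -0.29, and in the mean of replicates 1, 2 and 4 it was -1.73. No podocyte gene was called in replicate 3 alone, and 2 were called lower after cyclic loess scaling (median -1.07). The separation of exon and intron controls was also lowest on ob/ob replicates 1, 2 and 4, but it did not order single arrays as these markers did. Replicates 1 and 2 had separations of 0.778 and 0.783 and podocyte means of 9.72 and 8.47. The relation between separation and markers was not tested. With separation as a covariate 1 podocyte gene was called lower, and the median was -0.79. In these bulk samples, fewer podocytes, less RNA per podocyte and the poorer quality of ob/ob replicates 1, 2 and 4 cannot be told apart.

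Among the podocyte genes that fell, Ptpro, a receptor phosphatase of the foot process, measured 9.36, 6.68, 10.69 and 6.53 in ob/ob and 11.50, 11.75, 11.98 and 11.81 in wild type. The groups did not overlap, and the difference of -3.45 ± 0.86 (adjusted p = 0.0436) was -1.07 in replicate 3. On ob/ob replicates 2 and 4 Ptpro lay at or below the intron control median of the same array. Plce1, a phospholipase mutated in inherited nephrotic syndrome, fell by 2.19 ± 0.51 (-0.88 in replicate 3). Thsd7a, an antigen in membranous nephropathy, changed by -2.19 ± 0.50 (-0.77 in replicate 3), and Tcf21, a transcription factor of podocyte differentiation, by -1.99 ± 0.47 (-0.49 in replicate 3). Several defining genes did not pass: nephrin, Nphs1, measured 10.37, 7.30, 10.05 and 7.25 in ob/ob against 10.84, 10.73, 10.68 and 11.21 in wild type (adjusted p = 0.0919). Here replicates 1 and 3 lay close below wild type and replicates 2 and 4 far below. The difference of Wt1, the podocyte transcription factor, was -1.94 ± 0.53 (adjusted p = 0.0542), and that of the actin-binding synaptopodin gene Synpo was -0.40 ± 0.14 (adjusted p = 0.106). Podocalyxin, Podxl, measured 14.34, 11.30, 15.84 and 11.09 against 15.81, 15.67, 15.88 and 16.09 (adjusted p = 0.105), so that replicate 3 sat inside the wild-type range. Each of Ptpro, Plce1, Thsd7a and Tcf21 lost its call when any single array other than ob/ob replicate 3 was left out, with highest adjusted p of 0.118, 0.11, 0.0961 and 0.105.

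Endothelial and mesangial markers also differed between the ob/ob arrays. The mean of 21 glomerular endothelial genes was 9.83, 8.91, 10.55 and 8.68 in ob/ob and 10.35, 10.49, 10.51 and 10.60 in wild type, so that replicate 3 lay inside the wild-type range and the others below it. Of these, 3 fell (14.3%, against 7.25% of all genes tested), none rose, and the median was -1.01, but 0.14 in replicate 3. Emcn, the endothelial sialomucin endomucin, measured 12.58, 11.44, 13.81 and 10.97 against 14.20, 14.43, 14.43 and 14.14, with no overlap and a difference of -2.10 ± 0.53 (adjusted p = 0.0459). The receptor tyrosine kinase gene Tie1 changed by -1.10 ± 0.28 and by -0.30 in replicate 3. The mean of 15 mesangial and smooth muscle genes was 9.24, 8.45, 10.19 and 8.28 against 9.99, 9.64, 9.79 and 9.74, with replicate 3 above all wild-type arrays and the others below them. In this list none rose, and only Ptn and Pdgfrb fell (13.3%, against 7.25% of all genes tested). Ptn, the growth factor pleiotrophin, changed by -2.09 ± 0.47. Pdgfrb, the platelet-derived growth factor receptor of mesangial cells, changed by -1.57 ± 0.41. On ob/ob replicates 2 and 4 Ptn lay at or below the intron control median of the same array. After cyclic loess scaling no endothelial or mesangial gene was called, with medians of -0.70 and -0.39. With separation as a covariate none was called either, with medians of -0.54 and -0.42. Emcn, Tie1, Ptn and Pdgfrb also lost the call when any single array other than ob/ob replicate 3 was left out, with highest adjusted p of 0.123, 0.122, 0.1 and 0.13.

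**Figure D2:**
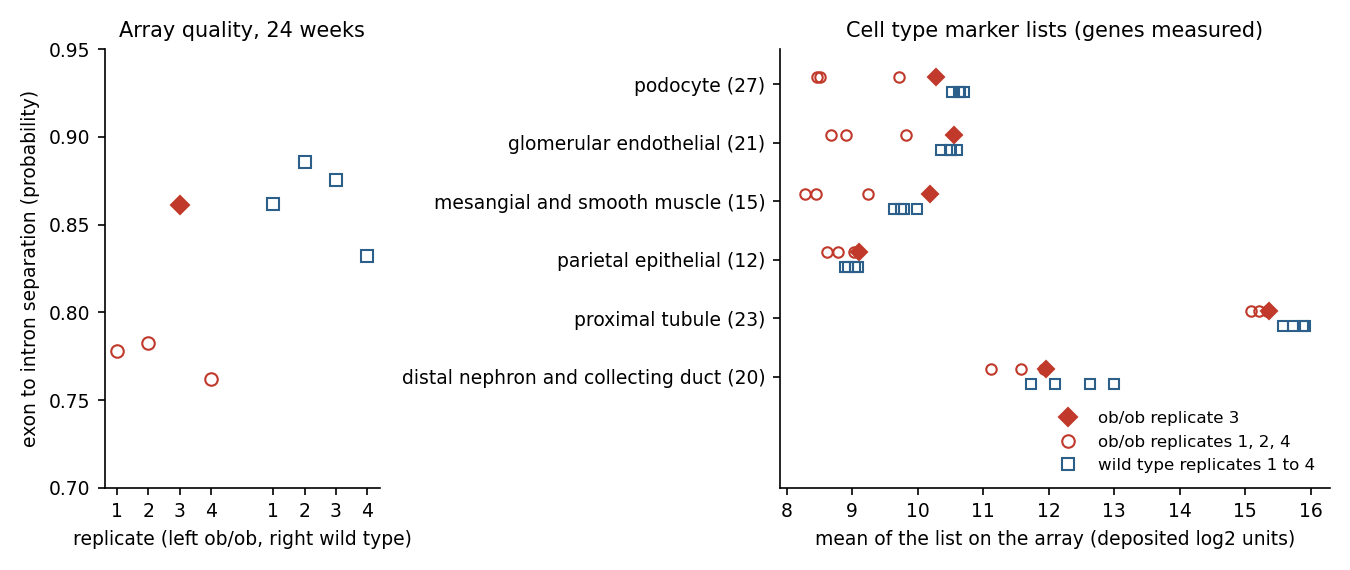
Left, the separation of exon from intron control probe sets on each of the 8 arrays (a probability, axis from 0.7 to 0.95). Right, the mean deposited log2 signal of 6 cell type marker lists on each array, with the number of genes in brackets; ob/ob replicates 2 and 4 lie about 2 units below wild type for podocyte genes, while replicate 3 (filled diamond) is close to wild type.

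The isolates also carried tubule RNA in both genotypes. The mean of 23 proximal tubule genes was 15.09, 15.34, 15.36 and 15.21 in ob/ob and 15.73, 15.91, 15.88 and 15.58 in wild type, with every ob/ob array below every wild-type array. Of these genes 7 fell (30.4%, against 7.25% of all genes tested) and none rose, with a median of -0.43 (-0.33 in replicate 3). After cyclic loess scaling 2 fell and 1 rose, and the median was 0.004. Gatm, which makes the creatine precursor, fell from 18.38, 18.28, 18.29 and 18.03 to 17.36, 16.37, 16.68 and 17.17, with no overlap and a difference of -1.35 ± 0.21 (adjusted p = 0.0124). Its difference was -0.86 after cyclic loess scaling and no longer passed (adjusted p = 0.0792). Miox, which opens the ring of inositol, changed by -1.22 ± 0.18, and the endocytic receptor genes Lrp2 (megalin) and Cubn (cubilin) by -0.54 ± 0.13 and -0.77 ± 0.11, but by -0.06 and -0.32 after cyclic loess scaling, when neither passed (adjusted p = 0.864 and 0.283). The phosphate transporter gene Slc34a1 measured 19.09, 19.11, 19.02 and 19.09 against 19.36, 19.29, 19.43 and 19.34, near the top of the scale, where its difference of -0.28 ± 0.08 did not pass (adjusted p = 0.0588). Of 20 distal nephron and collecting duct genes, 5 fell (25%, against 7.25% of all genes tested) and none rose (median -0.70). After cyclic loess scaling 2 fell. The 5 that fell before this scaling included uromodulin, Umod (-1.26 ± 0.26), and the growth factor gene Egf (-1.69 ± 0.32). They also included the magnesium pathway claudin Cldn16 (-1.23 ± 0.15) and pendrin, Slc26a4 (-1.38 ± 0.27). Lrp2 lost the call without ob/ob arrays 1, 2 or 4 or WT arrays 1, 2 or 3 (highest adjusted p 0.119), Umod without ob/ob arrays 1, 2 or 4 or WT arrays 2, 3 or 4 (highest adjusted p 0.0778), Egf without ob/ob array 1 or WT array 3 (highest adjusted p 0.0653) and Slc26a4 without ob/ob arrays 1, 2 or 4 or WT arrays 2 or 3 (highest adjusted p 0.0727). The distal list mean was 11.12, 11.94, 11.97 and 11.57 in ob/ob and 11.73, 12.10, 12.63 and 13.000 in wild type, with replicates 2 and 3 inside the wild-type range.

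Marker lists of other cell types gave at most 1 call in each direction. Of 19 macrophage and myeloid genes 1 fell, of 10 lymphocyte genes none passed (2 unadjusted p under 0.05), and of 12 parietal epithelial genes Pax8 rose (0.90 ± 0.19) and 1 fell. Pax8, a transcription factor of kidney epithelia, was 0.36 higher in replicate 3 than the wild-type mean and lost the call without ob/ob arrays 1, 2 or 4 or WT arrays 1, 2 or 3 (highest adjusted p 0.0862). Among 8 adipocyte genes only Lpl, lipoprotein lipase, passed. It measured 9.31, 10.32, 10.03 and 9.38 in ob/ob and 11.51, 11.85, 12.39 and 12.74 in wild type, a difference of -2.36 ± 0.32 (adjusted p = 0.00952) with no overlap, and was called in replicate 3 alone (adjusted p = 0.00714).

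The rise with the widest gap between the genotypes was that of Clca3a1, followed by the sugar transporter gene Slc5a10, described with its list. Clca3a1, a regulator of calcium-activated chloride channels, measured 10.25, 10.16, 10.51 and 9.65 in ob/ob and 7.32, 7.19, 7.18 and 7.47 in wild type. All ob/ob arrays lay more than 2 units above all wild-type arrays, and the difference was 2.85 ± 0.17 (adjusted p = 0.000561; replicate 3 alone, 0.00153). Its close paralog Clca3a2 rose by 2.27 ± 0.12, and signal could be shared between the pair. Kyat1, which converts kynurenine and glutamine, measured 10.06, 9.86, 9.85 and 10.10 against 8.24, 8.12, 8.04 and 8.39, a tight rise of 1.77 ± 0.11 (adjusted p = 0.000561). Gpam, the mitochondrial enzyme that starts glycerolipid synthesis, measured 11.86, 11.96, 11.96 and 11.98 against 10.67, 10.39, 10.46 and 10.31, with the ob/ob arrays close together. That rise was 1.48 ± 0.10 (adjusted p = 0.00076).

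Other wide rises were spread over genes of several functions. Zbtb16, a transcriptional repressor known as a glucocorticoid target, rose by 2.80 ± 0.35 (3.55 in replicate 3), and Arrdc3, an arrestin-like regulator of receptor traffic, by 1.84 ± 0.15 (1.49 in replicate 3). The glutamine transporter gene Slc38a3 measured 8.69, 11.27, 8.03 and 9.83 against 6.49, 6.36, 6.65 and 6.604, so that all ob/ob arrays were higher but spread over more than 3 units. Its rise was 2.93 ± 0.60 (adjusted p = 0.0246) and was lost without ob/ob arrays 1 or 4 or WT arrays 1, 2 or 3 (highest adjusted p 0.0769). Slc13a2, which reclaims citrate and other dicarboxylates, rose by 1.87 ± 0.26, Gramd1b, a carrier of cholesterol from the plasma membrane, by 2.15 ± 0.28 and Prob1 by 1.42 ± 0.14. Fkbp5, a glucocorticoid-induced chaperone singled out after its values were seen, measured 9.22, 9.20, 10.28 and 8.58 against 7.23, 7.01, 6.92 and 7.72. Replicate 3 was the highest array, and the rise of 2.10 ± 0.34 was called in replicate 3 alone (adjusted p = 0.000252).

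**Figure D3:**
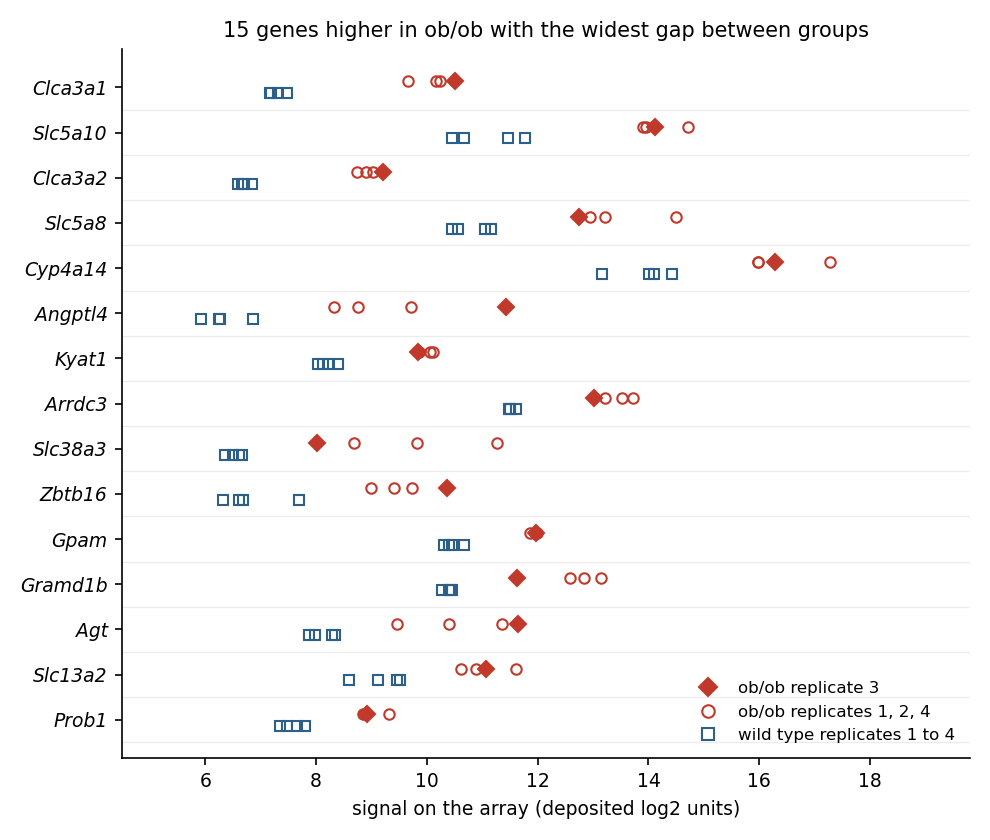
Deposited log2 signal on each array for the 15 genes that rose with the widest gap between the nearest ob/ob and wild-type arrays; filled diamonds are ob/ob replicate 3, open circles ob/ob replicates 1, 2 and 4, and squares wild type. In each gene all 4 ob/ob arrays lie above all 4 wild-type arrays, from Clca3a1 with a gap of 2.18 units to Prob1 with a gap of 1.04.

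Sugar transport and fructose handling genes, which serve the proximal tubule, contributed 5 rises and no fall among 13 tested (median 0.35, and 0.18 in replicate 3). Rises made up 38.5% of the list, against 1.49% of all genes tested. The largest was Slc5a10, the sodium-coupled mannose and fructose transporter SGLT5, which measured 13.90, 14.72, 14.12 and 13.95 in ob/ob and 11.78, 11.46, 10.67 and 10.46 in wild type. That is a rise of 3.08 ± 0.31 (adjusted p = 0.00448) with at least 2 units between the groups. Slc5a8, a sodium-coupled carrier of lactate and other monocarboxylates, measured 12.95, 14.50, 12.74 and 13.22 against 11.16, 11.05, 10.57 and 10.45, a rise of 2.55 ± 0.36. Slc2a5, the fructose transporter GLUT5, rose by 1.66 ± 0.30 (1.78 in replicate 3), Tkfc, the triokinase of fructose breakdown, by 1.49 ± 0.33 (1.65) and Slc2a2, the basolateral glucose transporter GLUT2, by 0.92 ± 0.17 (0.88). None of the 5 was called in replicate 3 alone. Slc2a5 lost its call without ob/ob arrays 1 or 2 or WT array 2 (highest adjusted p 0.0558), Tkfc without ob/ob arrays 1, 2 or 4 or WT arrays 2 or 3 (highest adjusted p 0.0972) and Slc2a2 without ob/ob arrays 1 or 2 or WT arrays 2 or 3 (highest adjusted p 0.0574). After cyclic loess scaling 6 genes of the list rose, and none fell.

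Fatty acid oxidation and PPAR target genes respond to the lipid-sensing nuclear receptor PPAR alpha. They held 5 rises (26.3%, against 1.49% of all genes tested) and no fall among 19 tested. Their median was 0.50, and it was 1.09 in replicate 3 against 0.26 in the mean of replicates 1, 2 and 4. Angptl4, a secreted inhibitor of lipoprotein lipase, measured 8.75, 9.71, 11.42 and 8.33 against 5.93, 6.26, 6.27 and 6.86, with replicate 3 highest and no overlap. The rise of 3.22 ± 0.60 (adjusted p = 0.0186) was 5.09 in replicate 3 (adjusted p alone 0.00207). Cyp4a14, a fatty acid omega-hydroxylase with close paralogs, measured 15.97, 17.27, 16.28 and 15.99 against 13.17, 14.43, 14.10 and 14.002, a rise of 2.45 ± 0.35. Vnn1, which releases pantothenic acid and cysteamine, rose by 1.54 ± 0.40 (2.49 in replicate 3), Acot1, an acyl-CoA thioesterase, by 1.26 ± 0.30 (1.77), and Ppargc1a, the coactivator of mitochondrial genes, by 0.91 ± 0.19 (0.45). Pdk4, the kinase that closes glucose entry into the citric acid cycle, measured 11.21, 11.57, 15.09 and 10.38 against 8.69, 8.91, 9.10 and 8.95. All ob/ob arrays were above wild type and replicate 3 was far above, and the difference of 3.15 ± 0.87 did not pass (adjusted p = 0.0566). Angptl4 lost its call without ob/ob array 2 or WT arrays 2 or 3 (highest adjusted p 0.0604), Vnn1 without ob/ob arrays 1 or 2 or WT arrays 1, 2, 3 or 4 (highest adjusted p 0.121), Acot1 without ob/ob arrays 1 or 2 or WT arrays 1, 2, 3 or 4 (highest adjusted p 0.105) and Ppargc1a without ob/ob arrays 1, 2 or 4 or WT arrays 1, 2 or 3 (highest adjusted p 0.0805). With separation as a covariate 12 of the 19 genes were higher and none lower, and 3 were called in replicate 3 alone.

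Sterol and lipid synthesis genes were lower on ob/ob replicate 3 by as much as on the other ob/ob arrays. Cells make cholesterol from acetyl-CoA through mevalonate and squalene under the control of the transcription factor SREBP2, whose activation INSIG1 restrains, and INSIG1 is itself a target of the pathway. Of 15 genes tested 10 fell (66.7%, against 7.25% of all genes tested) and none rose. Their median was -0.89, which was -0.84 in replicate 3 and -0.81 in the mean of replicates 1, 2 and 4. In replicate 3 alone 7 of the 15 were called lower, with separation as a covariate 6, and after cyclic loess scaling 7.

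SREBP2 acts on promoters together with NF-Y, a factor that binds CCAAT. The 250 bases before the transcription start were taken from RefSeq on GRCm38.p6 for the falling genes, of which 7 matched: Acaca, Cyp51, Dhcr7, Idi1, Insig1, Lss and Srebf2. CCAAT on either strand (ATTGG on the other) was found in 6 of the 7, all but Acaca, and in 33.85% of the 32851 promoters of this length. A gene with several promoters was counted once if any matched. The percentages over all promoters count single promoters instead, so the measures are not alike. The letters TCACNCCAC, a core of the sterol regulatory element, were found in 0 of the 7 and in 1.053% of all promoters, on either strand. Only these exact letters were searched, so their absence does not show that a sterol regulatory element is absent. Promoters of the 3 largest falls with an entry are shown because these genes moved together, with CCAAT or ATTGG in capitals. Insig1 lies at chr5:28071162-28071411 on the plus strand, Cyp51 at chr5:4104698-4104947 on the minus strand and Idi1 at chr13:8885356-8885605 on the plus strand.
Insig1: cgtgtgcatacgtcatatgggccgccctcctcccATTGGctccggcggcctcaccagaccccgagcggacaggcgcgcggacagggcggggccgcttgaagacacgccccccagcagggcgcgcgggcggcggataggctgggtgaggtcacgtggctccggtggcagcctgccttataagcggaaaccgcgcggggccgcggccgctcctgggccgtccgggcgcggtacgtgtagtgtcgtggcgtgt
Cyp51: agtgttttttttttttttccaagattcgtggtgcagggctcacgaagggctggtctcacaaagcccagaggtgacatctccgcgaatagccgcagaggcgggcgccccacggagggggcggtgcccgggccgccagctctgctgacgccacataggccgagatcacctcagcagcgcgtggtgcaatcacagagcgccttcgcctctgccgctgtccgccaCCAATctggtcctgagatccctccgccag
Idi1: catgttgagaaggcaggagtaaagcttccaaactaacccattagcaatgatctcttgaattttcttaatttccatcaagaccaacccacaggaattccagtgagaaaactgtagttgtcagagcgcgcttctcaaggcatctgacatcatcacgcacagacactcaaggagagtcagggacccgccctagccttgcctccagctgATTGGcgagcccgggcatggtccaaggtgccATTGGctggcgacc
The match begins 216 bases before the start in Insig1 and 29 in Cyp51, and Idi1 has matches at 45 and 14. These matches describe letters and not binding.

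Insig1 measured 9.19, 8.71, 8.56 and 8.62 in ob/ob and 10.52, 10.36, 10.46 and 10.69 in wild type, with more than 1 unit between the groups. It fell by 1.74 ± 0.15 (adjusted p = 0.00214; replicate 3 alone, 0.0314) and kept its call with any single array left out. Cyp51, the lanosterol demethylase, measured 8.62, 8.51, 8.37 and 8.74 against 9.86, 10.97, 10.51 and 10.69, again without overlap, a difference of -1.95 ± 0.22 (adjusted p = 0.00627; replicate 3 alone, 0.00266). Earlier in the pathway, Fdps, which makes farnesyl diphosphate, measured 7.42, 6.93, 7.24 and 7.003 against 8.63, 8.90, 8.61 and 8.11 (-1.42 ± 0.18). Idi1, the isomerase that feeds it, measured 9.32, 7.95, 8.58 and 8.54 against 9.68, 10.32, 10.02 and 9.59 (-1.30 ± 0.28), with the nearest arrays 0.27 apart. The squalene synthase gene Fdft1 changed by -1.01 ± 0.14, the squalene epoxidase gene Sqle by -0.78 ± 0.11, the cyclase gene Lss by -0.94 ± 0.15 and Dhcr7, which completes cholesterol, by -0.48 ± 0.11. Srebf2, which encodes SREBP2, changed by -0.89 ± 0.16 and the fatty acid synthesis gene Acaca by -0.77 ± 0.10. Idi1 lost its call without ob/ob arrays 2 or 4 or WT arrays 1, 2 or 3 (highest adjusted p 0.0907), Srebf2 without ob/ob array 2 or WT arrays 2 or 3 (highest adjusted p 0.0602) and Dhcr7 without ob/ob arrays 1 or 2 or WT arrays 1, 2, 3 or 4 (highest adjusted p 0.0999).

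The falls with the widest gap were led by Kap, the kidney androgen-regulated protein of the proximal tubule. Kap measured 10.50, 14.09, 12.43 and 13.61 in ob/ob and 16.54, 17.54, 18.03 and 18.94 in wild type. The difference of -5.11 ± 0.78 (adjusted p = 0.0119) left at least 2 units between the groups although both spread widely. Akr1c20, an aldo-keto reductase, measured 6.52, 6.37, 6.44 and 6.96 against 9.06, 8.97, 9.30 and 9.41. Its difference was -2.62 ± 0.16 (adjusted p = 0.000561), and -2.75 in replicate 3. On ob/ob replicates 1 and 2 Akr1c20 lay below the intron control median of the same array. Havcr1, the gene of kidney injury molecule 1, which marks injured proximal tubule, measured 6.32, 6.30, 6.68 and 6.26 against 8.17, 10.12, 9.94 and 8.82. It was lower in every ob/ob array than in every wild-type array, by -2.88 ± 0.40 (adjusted p = 0.00991). On ob/ob replicates 1, 2 and 4 Havcr1 lay below the intron control median of the same array. Of 14 kidney injury markers tested Havcr1 was the only one called (7.14%, against 8.73% of all genes tested). With separation as a covariate 2 of the 14 were higher and 1 lower. After cyclic loess scaling 1 was higher and 1 lower.

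Organic anion carriers of the SLC22 family were among the 15 falls with the widest gap: Slc22a19, Slc22a22 and Slc22a7. Of 22 organic anion and cation transport genes, 6 fell (27.3%, against 7.25% of all genes tested) and 1 rose. The median was -0.22, and -0.44 in replicate 3. After cyclic loess scaling 5 fell and 1 rose (median -0.02), and the same counts held with separation as a covariate (median 0.06). Slc22a19 measured 6.996, 8.30, 7.35 and 8.33 in ob/ob and 10.21, 11.76, 11.60 and 12.51 in wild type, a difference of -3.78 ± 0.49 (adjusted p = 0.00922) without overlap. Slc22a22, a carrier of prostaglandins, measured 11.69, 11.07, 9.91 and 11.68 against 13.41, 13.77, 14.02 and 13.40 (-2.56 ± 0.37), with replicate 3 lowest. The carriers Slc22a7, Slc22a27 and Slc22a29 changed by -2.17 ± 0.21, -2.24 ± 0.33 and -2.25 ± 0.36, and by -2.36, -3.09 and -3.20 in replicate 3. On ob/ob replicates 1, 2 and 4 Slc22a7 lay below the intron control median of the same array, as did Slc22a27 on replicate 2. Slc22a27 and Slc22a29 are close in sequence, so their signals may not be separate. Slco4c1, a carrier of thyroid hormone and digoxin, rose by 1.64 ± 0.31 (0.72 in replicate 3), and lost the call without ob/ob arrays 1 or 2 or WT arrays 2 or 3 (highest adjusted p 0.0563).

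Further wide gaps belonged to enzymes and secreted proteins. Igfals, which holds IGF in a stable complex in blood, measured 5.90, 5.25, 5.79 and 5.52 against 7.39, 8.56, 8.21 and 7.80, a difference of -2.38 ± 0.25. Each of its ob/ob values lay below the intron control median of the same array. Gsta4, a glutathione transferase for lipid aldehydes, measured 10.85, 10.50, 10.86 and 10.87 against 12.60, 12.32, 12.34 and 12.47 (-1.66 ± 0.12). Gpt2, the mitochondrial alanine transaminase, changed by -1.76 ± 0.13 and was called in replicate 3 alone (adjusted p = 0.0021). The medium-chain acyl-CoA synthetase gene Acsm1 changed by -1.95 ± 0.17, the sulfur transferase gene Tst by -1.90 ± 0.24, the acetyltransferase gene Nat8b, which has close paralogs, by -1.65 ± 0.14, Olfml1 by -2.22 ± 0.25 and Fam151a by -2.35 ± 0.26. In all of these, every ob/ob array lay at least 1.24 units below the lowest wild-type array. Gimap4, a GTPase of lymphocytes and endothelium, measured 10.36, 8.33, 10.97 and 8.61 against 12.27, 12.43, 12.20 and 12.26. It fell by 2.72 ± 0.54 with ob/ob replicates 1 and 3 well above 2 and 4, the same order as for the glomerular markers, and lost the call without ob/ob arrays 2 or 4 or WT arrays 1, 2 or 3 (highest adjusted p 0.0727).

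**Figure D4:**
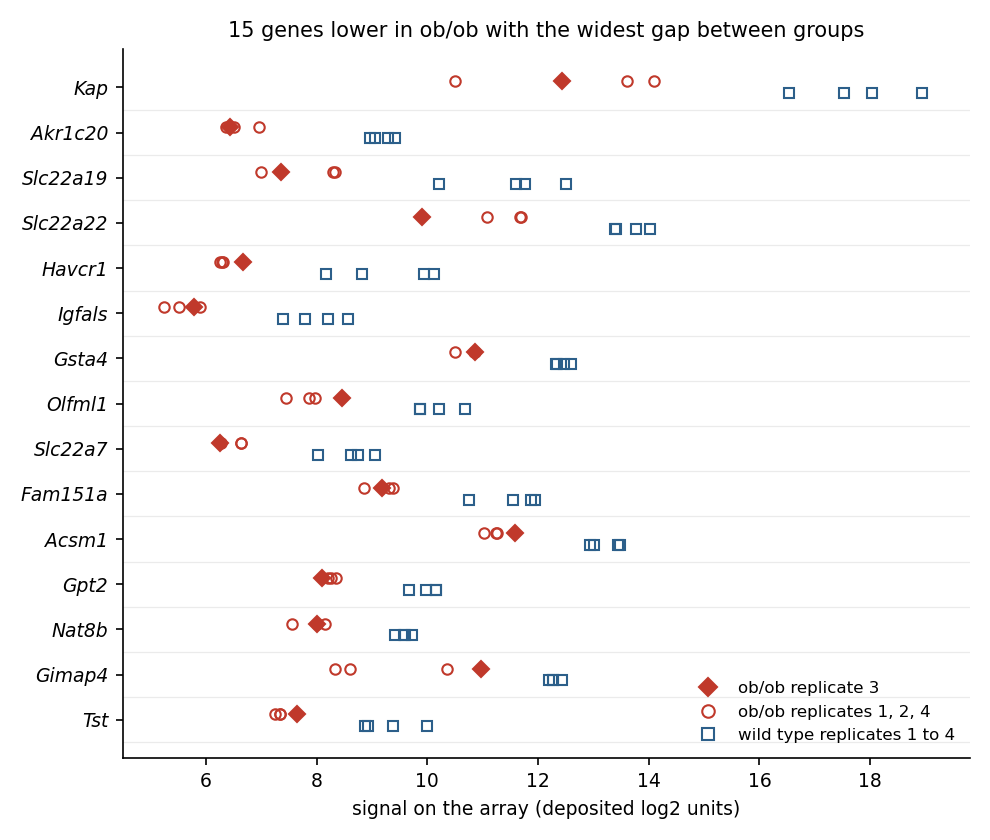
Deposited log2 signal on each array for the 15 genes that fell with the widest gap between the nearest ob/ob and wild-type arrays; filled diamonds are ob/ob replicate 3, open circles ob/ob replicates 1, 2 and 4, and squares wild type. In each gene all 4 ob/ob arrays lie below all 4 wild-type arrays, from Kap with a gap of 2.45 units to Tst with a gap of 1.24.

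Vitamin D, phosphate and calcium genes moved in both directions, 3 up and 3 down among 17 (median -0.38). That is 17.6% each way, against 1.49% up and 7.25% down of all genes tested. Cyp24a1, which inactivates vitamin D, measured 14.51, 12.21, 15.19 and 14.23 in ob/ob and 11.03, 10.75, 11.74 and 9.52 in wild type. Every ob/ob array was higher, though replicate 2 was only 0.47 above the highest wild-type array, and the rise was 3.27 ± 0.66 (adjusted p = 0.024). The vitamin D receptor gene Vdr rose by 0.91 ± 0.19 and was called in replicate 3 alone (adjusted p = 0.0383), and the phosphate carrier gene Slc20a1 rose by 0.85 ± 0.14. Cyp27b1, which activates vitamin D, measured 8.66, 10.12, 8.40 and 9.88 against 8.48, 7.89, 7.38 and 6.97. Its groups overlapped, and the difference of 1.59 ± 0.45 did not pass (adjusted p = 0.0617). The calcium-sensing receptor gene Casr measured 8.81, 9.13, 9.07 and 8.91 against 10.12, 10.63, 11.74 and 11.55, a difference of -2.03 ± 0.33 without overlap. The parathyroid hormone receptor gene Pth1r changed by -1.18 ± 0.15 and Kl, encoding the FGF23 co-receptor Klotho, by -1.15 ± 0.15. Cyp24a1 lost its call without ob/ob arrays 1 or 4 or WT array 2 (highest adjusted p 0.0726) and Vdr without ob/ob arrays 1 or 2 or WT arrays 1, 2, 3 or 4 (highest adjusted p 0.0735).

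In the renin-angiotensin and vasoactive list of 20 genes, 1 rose (5%) and 3 fell (15%), against 1.49% and 7.25% of all genes tested. The median was -0.58, with -0.09 in replicate 3 and -0.64 in the mean of the other ob/ob arrays. In this list 1 rose and 1 fell after cyclic loess scaling. Agt, the angiotensinogen from which angiotensin peptides are cut, measured 9.46, 11.36, 11.65 and 10.40 in ob/ob and 7.88, 8.34, 8.29 and 7.98 in wild type. All ob/ob arrays were above all wild-type arrays, replicate 3 was highest, and the rise of 2.60 ± 0.43 (adjusted p = 0.0147) was called in replicate 3 alone (adjusted p = 0.000231) and with any single array left out. Ace, which makes angiotensin II, measured 7.45, 8.95, 7.92 and 8.20 against 8.93, 9.19, 9.69 and 9.79. Its groups overlapped by 0.02, and its difference was -1.27 ± 0.32 (adjusted p = 0.0451). Mme, neprilysin, which degrades vasoactive peptides and is also found on podocytes and tubule cells, changed by -1.61 ± 0.31 (-0.94 in replicate 3). Ace lost its call without ob/ob arrays 1 or 4 or WT arrays 1, 2, 3 or 4 (highest adjusted p 0.126) and Mme without ob/ob arrays 1, 2 or 4 or WT arrays 2 or 3 (highest adjusted p 0.068), and both lost it after cyclic loess scaling (adjusted p = 0.0887 and 0.0504).

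Among 19 insulin, IGF and leptin signalling genes 7 fell (36.8%) and 2 rose (10.5%), against 7.25% and 1.49% of all genes tested (median of the list -0.31). After cyclic loess scaling 2 fell and 4 rose (median -0.02). Growth hormone acts through JAK2 and STAT5, and Igf1, Igfals, Socs2 and Cish are known targets of that pathway. Socs2, a feedback inhibitor, measured 6.37, 6.38, 6.43 and 6.46 against 6.96, 7.25, 7.25 and 7.71, a difference of -0.88 ± 0.15 (adjusted p = 0.0155) without overlap. On ob/ob replicates 1, 2 and 4 Socs2 lay below the intron control median of the same array. Cish, a related inhibitor that is in none of the lists and was singled out after its values were seen, measured 6.63, 6.55, 6.31 and 7.05 against 7.63, 7.58, 8.13 and 8.13 (-1.23 ± 0.19). Both were called in replicate 3 alone (adjusted p = 0.0469 and 0.0261). On ob/ob replicates 1 and 2 Cish lay below the intron control median of the same array. Igf1 changed by -0.77 ± 0.20 (adjusted p = 0.0477), and the binding protein genes Igfbp3 and Igfbp5 by -1.51 ± 0.20 and -1.37 ± 0.29. The rises were Igf1r, the IGF receptor (0.84 ± 0.18), and Foxo3, a transcription factor held back by insulin (1.06 ± 0.20; 1.52 in replicate 3). Socs2 lost its call without ob/ob arrays 1 or 2 (highest adjusted p 0.0526), Igf1 without ob/ob arrays 1, 2 or 4 or WT arrays 2, 3 or 4 (highest adjusted p 0.119), Igf1r without ob/ob arrays 1, 2 or 4 or WT arrays 2, 3 or 4 (highest adjusted p 0.0951), Foxo3 without ob/ob arrays 1 or 2 or WT arrays 2 or 3 (highest adjusted p 0.0661) and Igfbp5 without ob/ob arrays 1, 2 or 4 or WT arrays 1, 2, 3 or 4 (highest adjusted p 0.088).

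Interferon response genes, which defend against viruses, fell in 12 of 19 cases (63.2%, against 7.25% of all genes tested) and rose in none. Their median was -0.49 (-0.39 in replicate 3). Bst2, tetherin, measured 8.34, 8.63, 8.92 and 8.30 in ob/ob and 9.53, 11.01, 10.24 and 9.97 in wild type, a difference of -1.64 ± 0.29 (adjusted p = 0.0169) without overlap. Gbp2, a guanylate-binding protein, changed by -1.41 ± 0.29, the apoptosis factor gene Xaf1 by -1.04 ± 0.19 and the antiviral enzyme gene Rsad2, viperin, by -0.99 ± 0.19. In replicate 3 these 4 genes were -1.27, -0.57, -0.68 and -0.46 from the wild-type mean. On ob/ob replicates 2 and 4 Gbp2 lay below the intron control median of the same array. None of the list was called in replicate 3 alone, 7 were called lower after cyclic loess scaling, and none was called with separation as a covariate. Bst2 lost its call without ob/ob arrays 1 or 2 or WT array 3 (highest adjusted p 0.0564), Gbp2 without ob/ob arrays 1 or 2 or WT arrays 1, 2 or 3 (highest adjusted p 0.0809), Xaf1 without WT array 2 (highest adjusted p 0.062) and Rsad2 without ob/ob arrays 1, 2 or 4 or WT array 3 (highest adjusted p 0.0714). In the other immune lists, of 15 complement genes none passed (6 unadjusted p under 0.05). Of 16 inflammatory cytokine and adhesion genes only the chemokine gene Cxcl12 did, with -1.54 ± 0.28 (-1.26 in replicate 3). That is 6.25% of the list, against 8.73% of all genes tested. With separation as a covariate 2 genes of this list were higher and none lower. Cxcl12 lost its call without ob/ob arrays 1 or 2 or WT array 3 (highest adjusted p 0.0584).

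The matrix genes that passed over the 8 arrays were falls, 15.4% of the fibrosis and 11.1% of the basement membrane list against 7.25% of all genes. Of 18 basement membrane genes 2 fell (median -0.08; after cyclic loess scaling 1 fell and 1 rose, median 0.05), including the laminin chain gene Lama4, which measured 6.46, 6.36, 6.67 and 6.43 against 7.10, 7.30, 7.46 and 7.30. Its difference was -0.81 ± 0.11 without overlap, and it was called in replicate 3 alone (adjusted p = 0.0443). The type IV collagen genes did not pass: Col4a1 measured 9.70, 9.37, 9.51 and 9.13 against 9.52, 9.37, 9.30 and 9.18 and Col4a3 12.60, 11.76, 11.79 and 11.90 against 11.82, 12.04, 11.88 and 12.02, with overlapping groups. Of 26 fibrosis and interstitial matrix genes 4 fell (median -0.37; -0.04 in replicate 3). These were the collagen genes Col1a2 (-0.61 ± 0.10), Col3a1 (-0.41 ± 0.09) and Col6a3 (-0.76 ± 0.12) and the growth factor gene Tgfb2 (-0.89 ± 0.18). With separation as a covariate 3 genes of the fibrosis list were lower and 1 was higher. After cyclic loess scaling 3 were lower and none higher. Col3a1 lost its call without ob/ob arrays 1, 2 or 4 or WT arrays 1, 2 or 3 (highest adjusted p 0.1) and Tgfb2 without ob/ob arrays 1, 2 or 4 or WT arrays 2 or 3 (highest adjusted p 0.0755). On ob/ob replicates 1, 2 and 4 Lama4, Col3a1 and Tgfb2 lay below the intron control median of the same array.

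Vascular growth factor genes were lower mainly on replicates 1, 2 and 4. Of 17 VEGF and angiopoietin signalling genes 5 fell (29.4%, against 7.25% of all genes tested) and none rose. The median was -0.67, but -0.09 in replicate 3. Aplnr, the apelin receptor, changed by -0.95 ± 0.16 (-0.96 in replicate 3) and Nrp2, a co-receptor of VEGF, by -0.80 ± 0.18 (-0.37). On every ob/ob array Aplnr lay below the intron control median of the same array. Of 22 TGF-beta and BMP signalling genes 4 fell (18.2%, against 7.25% of all genes tested) and none rose (median -0.48, and -0.02 in replicate 3). After cyclic loess scaling 1 gene of each of these 2 lists fell. With separation as a covariate 2 TGF-beta and BMP signalling genes were higher and none lower. Of the VEGF and angiopoietin signalling genes 1 was lower with the covariate and none higher. The BMP target Id2 measured 15.95, 15.93, 15.99 and 15.70 against 16.97, 17.52, 17.04 and 16.65, a difference of -1.15 ± 0.17 without overlap, and the receptor gene Tgfbr2 changed by -0.99 ± 0.25 (-0.24 in replicate 3). Aplnr lost its call without ob/ob arrays 1 or 2 (highest adjusted p 0.0545), and Nrp2 and Tgfbr2 when any single array other than ob/ob replicate 3 was left out (highest adjusted p 0.0961 and 0.126). The levels of endothelial and mesangial markers moved with these lists across the arrays, and their part was not tested. Some of this is built in, because the lists share genes. Flt1, Kdr, Tek, Tie1 and Nos3 are in both the VEGF and the endothelial list, so the fall of Tie1 counts in both. Vegfa is also in the podocyte list, and Eng is in both the TGF-beta and the endothelial list.

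Of the stress and growth lists, falls made up 22.2% of unfolded protein response, 18.2% of oxidative phosphorylation and 13.6% of oxidative stress genes, against 7.25% of all genes tested. Of 14 p53 target and senescence genes none passed in the limma fit (2 unadjusted p under 0.05), but 3 were higher after cyclic loess scaling and 3 with separation as a covariate. Cdkn1a, the cell cycle inhibitor p21, measured 10.63, 11.05, 13.68 and 10.37 in ob/ob and 8.57, 9.03, 8.92 and 9.46 in wild type. All ob/ob arrays were above all wild-type arrays and replicate 3 was far above the rest, and its difference of 2.44 ± 0.65 did not pass over 8 arrays (adjusted p = 0.053), whereas replicate 3 alone did (adjusted p = 0.00125). Cdkn1a also passed after cyclic loess scaling (adjusted p = 0.0449) and with the covariate (adjusted p = 0.0124). Of 22 oxidative stress and NRF2 target genes 3 fell, including the superoxide and peroxide source Nox4, which measured 14.17, 14.07, 14.61 and 14.13 against 15.55, 15.75, 15.93 and 16.04 (-1.57 ± 0.15). Of 18 unfolded protein response genes 4 fell, among them Hspa5, the chaperone BiP (-0.78 ± 0.15), Pdia3 (-0.84 ± 0.21) and Sdf2l1 (-1.16 ± 0.24), with a median of -0.46 (-0.32 in replicate 3), and 1 fell after cyclic loess scaling. No gene of this list or of the oxidative phosphorylation list was called with the covariate. Of 22 oxidative phosphorylation genes 4 fell (1 after cyclic loess scaling). These 4 included Ndufa4 (-1.01 ± 0.18, and -0.44 in replicate 3). Of 21 cell cycle genes 2 fell, including the helicase subunit gene Mcm6 (-1.08 ± 0.18). On ob/ob replicates 1, 2 and 4 Mcm6 lay below the intron control median of the same array. Of 21 glycolysis, gluconeogenesis and hypoxia response genes Pdk1, which limits pyruvate oxidation, rose (0.97 ± 0.14; replicate 3 alone, adjusted p = 0.0027). The 19 immediate early genes and the 17 circadian clock genes held 1 rise each, the growth regulator Myc (0.45 ± 0.09) and the clock output factor Hlf (0.77 ± 0.18).

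Single arrays decided several of these calls. Hspa5 lost its call without ob/ob arrays 1, 2 or 4 or WT arrays 2 or 3 (highest adjusted p 0.0651), Pdia3 without ob/ob arrays 1, 2 or 4 or WT arrays 2, 3 or 4 (highest adjusted p 0.131) and Sdf2l1 without ob/ob arrays 1, 2 or 4 or WT arrays 2, 3 or 4 (highest adjusted p 0.0855). Ndufa4 lost it without ob/ob arrays 1 or 2 or WT arrays 2 or 3 (highest adjusted p 0.0579), Mcm6 without ob/ob array 2 (highest adjusted p 0.0504), Myc without ob/ob arrays 1, 2 or 4 or WT array 3 (highest adjusted p 0.0794) and Hlf without ob/ob arrays 1 or 2 or WT arrays 1, 2 or 3 (highest adjusted p 0.107). Of Apob, the lipoprotein component, all ob/ob arrays were above wild type (12.69, 13.95, 14.96 and 12.83 against 12.27, 12.34, 11.90 and 10.86), but the difference of 1.77 ± 0.53 did not pass (adjusted p = 0.0696; replicate 3 alone, 0.00372).

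**Figure D5:**
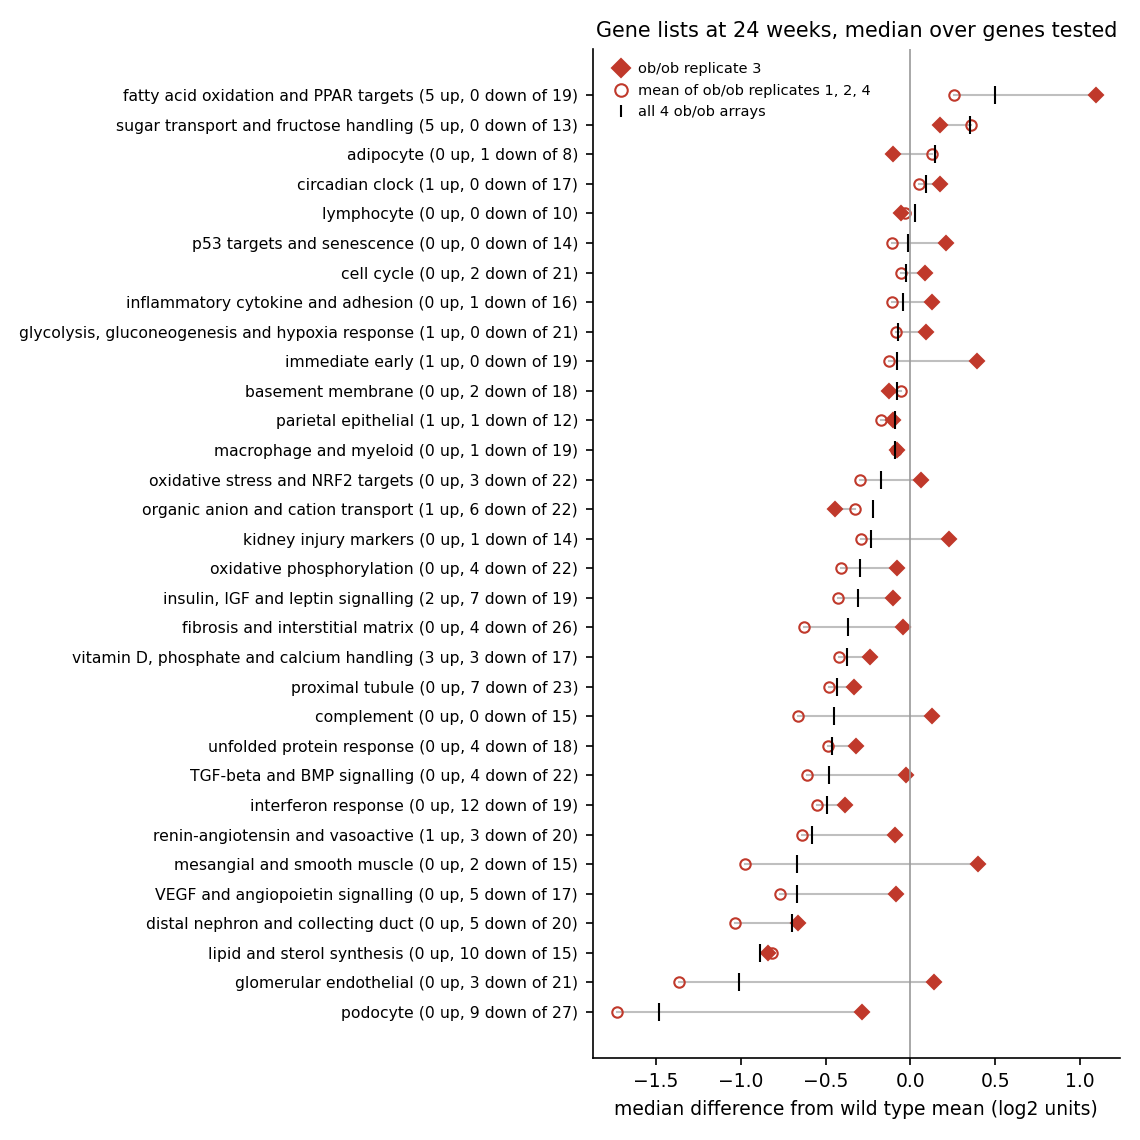
Median difference from the wild-type mean, in deposited log2 units, over the tested genes of each list with at least 8 of them: ob/ob replicate 3 (filled diamond), the mean of ob/ob replicates 1, 2 and 4 (open circle) and all 4 ob/ob arrays (bar), with the numbers of genes past the threshold beside each name. The marks lie close together for lipid and sterol synthesis (-0.84 and -0.81) and far apart for glomerular endothelial genes (0.14 and -1.36).

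The genotype difference at 24 weeks was set against that at 16 weeks, the nearest age with 4 arrays per genotype, which shares no array with it. No gene passed the interaction test (0%), while 3217 had an unadjusted p under 0.05. Without ob/ob 24-week replicate 3, 1945 genes passed. With array quality weights, which give less weight to arrays that deviate from their group, 2767 passed. These weights do not use the control probe sets, so they need not favour arrays with better separation, such as ob/ob 24-week replicate 3. Among the 10 smallest interaction p was that of Ifitm3, an interferon-induced membrane protein, whose genotype difference was 2.22 ± 0.46 units more negative at 24 weeks (adjusted p = 0.364). The 16-week comparison, fitted on its own 8 arrays, called 65 genes (0.27%), of which 41 were called at 24 weeks too, all 41 in the same direction.

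Genes named above differed in what earlier ages showed. Clca3a1 differed by 1.66, 2.29 and 3.21 at 4, 8 and 16 weeks, Slc5a10 by 1.30, 2.81 and 3.86 and Agt by 1.10, 2.14 and 2.76. Slc22a19 differed by -2.88, -3.40 and -3.54 and Kap by -2.05, -4.60 and -4.05, while Akr1c20 differed by -0.52, -0.12 and -1.94. Insig1 differed by -0.26, -0.88 and -1.71 and Cyp51 by -0.90, -0.88 and -1.57. Gpam differed by 0.15, 0.38 and 0.55 and Arrdc3 by 0.22, -0.32 and 0.70, against 1.48 and 1.84 at 24 weeks. Podocyte Nphs1 differed by -0.13, -0.04 and 0.18 and Ptpro by -0.82, -0.91 and -1.005. None of these changes of the difference from 16 to 24 weeks passed the interaction test.

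Across the fits over all 8 arrays, over all 30 arrays, with the separation covariate, after cyclic loess scaling, with replicate number as a block and with replicate 3 alone, 88 genes were called the same way, 48 higher and 40 lower. Of the genes named here these included the rises of Clca3a1, Clca3a2, Agt, Angptl4, Zbtb16, Gpam, Kyat1, Fkbp5, Gramd1b, Prob1, Pdk1, Foxo3 and Vdr. The falls included Slc22a19, Slc22a22, Slc22a27, Slc22a29, Slc22a7, Akr1c20, Igfals, Lpl, Gpt2, Insig1, Cyp51, Fdps, Cish, Socs2 and Lama4. No podocyte, endothelial or mesangial marker was among the 88. Of the 108 genes called and listed for the text, 27 lost the call after cyclic loess scaling, all of them falls: Ace, Clic5, Col3a1, Cubn, Dhcr7, Egf, Emcn, Gatm, Hspa5, Idi1, Igf1, Igfbp5, Lrp2, Mme, Nrp2, Pdgfrb, Pdia3, Plce1, Ptn, Ptpro, Slc26a4, Srebf2, Tcf21, Tgfbr2, Thsd7a, Tie1 and Umod. With separation as a covariate 45 lost it, 20 of which cyclic loess also lost (the 27 above other than Dhcr7, Egf, Gatm, Igf1, Mme, Srebf2 and Umod). The other 25 were Bst2, Cldn16, Col1a2, Cxcl12, Fam151a, Fdft1, Gbp2, Id2, Igfbp3, Kl, Lss, Mcm6, Miox, Myc, Nat8b, Ndufa4, Nox4, Pax8, Ppargc1a, Rsad2, Sdf2l1, Sqle, Tgfb2, Tst and Xaf1.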

How the data were processed

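The authors deposited log2 signals, made by RMA in Affymetrix Expression Console 1.4 per the submitters' processing notes. No further settings are stated in the labels. The 8 arrays of 24 weeks, each from a separate animal per the labels, were fitted with limma 3.58.1 in R 4.3.3 (empirical Bayes, residual df 6, prior df 2.74). All 30 arrays were not pooled for the main test because the ob/ob arrays of this age spread more widely (median SD 0.21 against 0.16 in wild type). Tested genes had log2 of at least 5 in at least 3 arrays, which lies below intron controls, so weak signals are compressed by background. Each gene had 1 probe set, the brightest on average, and probe sets with several symbols were left out (2146). Some genes of the lists and of the fixed set named here are not reported. Symbols came from the platform annotation. With 4 arrays per genotype the median SE was 0.14, and the number of arrays limits the precision.

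The members, lists and tests were chosen with earlier results of these data known. Genes named were the 15 widest gaps between groups in each direction among called, non-overlapping genes, leaving out predicted genes and large families, up to 4 called members per list with the largest change, the smallest interaction p and a fixed set (Lep, Lepr, Nphs1, Wt1, Podxl, Synpo, Col4a1, Col4a3, Havcr1, Slc34a1, Cdkn1a, Slc5a10, Kap, Cyp27b1, Cyp24a1, Agt, Apob). Chosen after their values were seen were Acaca, Cish, Cldn16, Cubn, Dhcr7, Fdft1, Fkbp5, Igf1, Igf1r, Lrp2, Lss, Pdk4, Ppargc1a, Slc20a1, Slc2a2, Slco4c1, Sqle, Srebf2 and Vdr. The erythroid list had 2 tested genes, of which 1 fell. The fit was also run on simulated independent normal values without array effects, which cannot show how it performs on arrays of unequal quality. Alternatives were all 30 arrays, array weights, a spread per group, block, filters, cyclic loess, trend and robust settings, probe set choices, a minimum difference of 1, a separation covariate and arrays left out; replicate 3 alone with the spread of 27 arrays was added after seeing the data. Replicate numbers did not pair the arrays: same-numbered deviations correlated at -0.035, -0.21, 0.19 and 0.35.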

Additional observations from a re-analysis of the deposited data

Results flagged for a closer look

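In 11 of 262 groups of 4 arrays examined, 1 array stood apart from the others by Dixon's criterion (its gap to the nearest array as a share of the group's range), and chance gives about 1 in 20 such groups. In ob/ob these were Havcr1 in replicate 3 (6.676, others 6.255 to 6.319), Ndufa4 in replicate 3 (15.37, others 14.56 to 14.65), Prob1 in replicate 2 (9.323, others 8.841 to 8.921), Gsta4 in replicate 2 (10.5, others 10.85 to 10.87), Col3a1 in replicate 1 (6.409, others 6.609 to 6.624) and Col4a3 in replicate 1 (12.6, others 11.76 to 11.9). In wild type they were Arrdc3 in replicate 4 (11.62, others 11.48 to 11.51), Tie1 in replicate 4 (9.92, others 9.674 to 9.701), Synpo in replicate 4 (8.169, others 7.785 to 7.806), Srebf2 in replicate 4 (10.18, others 10.58 to 10.64) and Ptn in replicate 2 (9.781, others 9.31 to 9.388).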

How the results depend on the processing

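The count of 2105 called genes was 6248 with all 30 arrays, 7572 with array quality weights, 4474 with a spread per group, 1107 after cyclic loess, 1064 over all probe sets, 665 with a minimum difference of 1, 972 with the separation covariate, 35 for replicate 3 alone with 5 arrays and 239 with the spread of 27 arrays. Leaving out single arrays gave 415 to 6858. It stayed within 1.5 times with no filter (1842), a filter at log2 6 (2426), trend and robust settings (1866) and the mean of probe sets (2114). With replicate number as a block 2222 genes were called, 1650 of them among the 2105. The interaction count of 0 became 2767 with array quality weights and ranged from 0 to 1945 with single arrays left out (1 without ob/ob 16-week replicate 3 or wild-type 16-week replicate 2). It was 0 in the other settings, with 4483 unadjusted with all 30 arrays. The separation difference ranged from -0.0897 to -0.0567 with single arrays left out. Of 108 named genes called, 55 kept the call with each array left out and 6 did so in every alternative other than the minimum difference (Agt, Slc22a22, Insig1, Akr1c20, Clca3a2, Clca3a1); none called reversed. Among genes not called, Slc34a1 changed sign after cyclic loess (0.23), Col4a1 with the covariate (-0.13) and with single arrays left out (-0.0097 to 0.18), and Col4a3 in replicate 3 alone (-0.15), with the covariate (-0.19) and with single arrays left out (-0.12 to 0.16). The cause of these changes was not tested.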

Other observations

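Small nuclear RNA genes, the RNA parts of the spliceosome, fell in 210 of 793 cases and rose in 1 (26.6% called, against 8.73% of all genes tested, 1.49% higher and 7.25% lower), with a median difference of -0.42 and of -0.59 in ob/ob replicate 3. Many share probes: the 793 genes held 719 distinct sets of values, and the 210 held 147. None was called in replicate 3 alone. Of 428 microRNA genes 19 rose and 1 fell (4.67% called), with a median of 0.37, but 0.06 in replicate 3. Of 1973 long noncoding RNA genes 43 rose and 9 fell (2.64% called), and of 15694 protein-coding genes 255 rose and 1089 fell (8.56% called, near the share of all genes).

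Near Lep, within 10 Mb on its chromosome, 140 genes were tested, of which 4 rose and 8 fell (8.57%, against 8.73% of all genes).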
